A study of Mus musculus with 8 samples.

Results

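The genes described here are 10 that report on or restrain signalling through the ERK kinases. They were taken by symbol from the 55416 gene identifiers of the deposited count table. They include the Sprouty genes Spry1, Spry2 and Spry4 and the Spred genes Spred1 and Spred2. The rest are the dual-specificity phosphatase genes Dusp4, Dusp5 and Dusp6 and the ETS transcription factor genes Etv4 and Etv5. All 10 were found and all 10 were among the 15133 genes with enough counts to be tested. Their transcripts were sequenced in MB21, a line of mouse medulloblastoma cells labelled as a ptch mutant, which grew unattached in DMEM/F12 with B27 supplement and antibiotics. Control cells received the DMSO vehicle and treated cells 10 uM of DS-1-38, by the series' own description a benzarone derivative, both for 5 days. Each group had 4 libraries, called DMSO and DS38 here, and all 8 come from the same mutant line. Whether replicate libraries came from separate cultures is not in the labels, and the p-values therefore measure only a between-sample spread that may be technical.

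When a growth factor such as an FGF activates its receptor, Ras and then the Raf, MEK and ERK kinases are switched on in turn. Active ERK enters the nucleus and releases genes held down by the repressor Capicua, among them those for the Etv factors. Other genes induced in this way act back on the pathway: Sprouty and Spred proteins hold back Ras and Raf upstream of ERK, and Dusp phosphatases remove the activating phosphates from ERK itself. The transcripts of these brakes are widely used as a readout of ERK output, and in granule neuron progenitors, the cells from which Hedgehog medulloblastoma arises, FGF signalling is known to restrain the proliferative response to Hedgehog. The counts measure transcripts only, and neither ERK activity nor protein was measured.

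For 7 of the 10 genes a RefSeq promoter window was at hand (build GRCm38.p6, 8 windows because Etv5 has more than 1). Spry4, Dusp4 and Etv4 were not searched. The 250 bases before each start site were searched on both strands for the Capicua octamers TGAATGAA, TGAATGGA, TCAATGAA and TCAATGGA, the ETS core CCGGAA, the AP-1 site TGAGTCA, the cyclic AMP element TGACGTCA and the CArG box bound by serum response factor. The CArG box was added after the Dusp5 window had been read. No motif overlapped another in these windows. The windows with a match are shown, with the matches in capitals and each window read 5′ to 3′ towards its gene. They belong to the strongest faller by p-value, to a modest faller and to the riser. Other falling genes had windows without a match.

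Dusp6, chr10:99262981-99263230, plus strand: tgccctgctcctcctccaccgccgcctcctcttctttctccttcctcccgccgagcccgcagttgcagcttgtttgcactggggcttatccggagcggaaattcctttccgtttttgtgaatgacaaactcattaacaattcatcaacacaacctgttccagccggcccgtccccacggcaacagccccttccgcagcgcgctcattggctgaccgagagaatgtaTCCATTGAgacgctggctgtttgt

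Spry2, chr14:105896820-105897069, minus strand: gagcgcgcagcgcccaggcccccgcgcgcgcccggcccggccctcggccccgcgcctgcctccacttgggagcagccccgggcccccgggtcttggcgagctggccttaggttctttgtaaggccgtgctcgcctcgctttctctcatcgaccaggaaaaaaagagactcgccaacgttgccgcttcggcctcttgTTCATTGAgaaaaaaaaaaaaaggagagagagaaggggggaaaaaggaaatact

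Dusp5, chr19:53528895-53529144, plus strand: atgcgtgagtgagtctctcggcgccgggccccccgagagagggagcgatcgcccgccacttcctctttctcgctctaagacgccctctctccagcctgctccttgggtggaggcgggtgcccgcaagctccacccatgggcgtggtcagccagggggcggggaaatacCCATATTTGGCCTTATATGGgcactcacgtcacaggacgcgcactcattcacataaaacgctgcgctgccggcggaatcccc

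In the Dusp6 window, TCCATTGA, the reverse complement of a Capicua octamer, lay 24 to 17 bases before the start site. The Spry2 window held another such match, TTCATTGA, 54 to 47 bases before it. Of all 32851 promoter windows of this length, 3.19% held a Capicua octamer. The Dusp5 window held 2 CArG boxes and no Capicua octamer, with CCATATTTGG 82 to 73 bases and CCTTATATGG 72 to 63 bases before the start site. CArG boxes were found in 1.47% of all windows. As this motif was added after the Dusp5 window had been read, that share cannot gauge the match there. The windows of Spry1, Spred1, Spred2 and Etv5, which also fell, held no match to any of these motifs. For Spred1 and an Etv5 window, the bases after the start site were found in no GENCODE transcript of the gene. Those start sites are therefore less certain. The ETS core, the AP-1 site and the cyclic AMP element, held by 12%, 4.46% and 1.55% of all windows, matched none of the 8. A match describes the letters alone and is not evidence of binding.

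Library totals ran from 18878556 to 25582159 counts in DMSO and from 17142397 to 28476019 counts in DS38. The line's identity was checked on markers: the granule progenitor and medulloblastoma genes, which include Atoh1, Gli1 and Barhl1, summed to 1363 to 1423 CPM in DMSO and 1476 to 1531 CPM in DS38, where CPM is a gene's count scaled to a common library total, adjusted for library composition. Of these 7 genes 4 rose and 2 fell: Atoh1 and Barhl1 were among the rises, while Gli1 went from 137 ± 3.54 to 90.8 ± 3.60 CPM and Zic1 from 623 ± 36.8 to 556 ± 17.1 CPM. Of 6 neuronal marker genes 5 rose with the compound and 0 fell, where 18.8% of all tested genes rose and 20.7% fell. The other, Rbfox3, went down from 81.9 ± 3.07 to 76.2 ± 1.11 CPM without overlap but did not pass (edgeR adjusted p = 0.0536). Summed levels of the 6 were 478 to 501 CPM in DMSO and 664 to 680 CPM in DS38. Microglial markers summed to at most 0.520 CPM in any library, endothelial ones to at most 2.61 and fibroblast ones to at most 4.98, with Cx3cr1 and Cldn5 at 0 counts in all libraries. The astrocyte list, nearly all of it Slc1a3, summed to 120 to 125 CPM in DMSO and 112 to 115 CPM in DS38. Slc1a3 fell, while Gfap of the same list rose from 1.83 ± 0.520 to 3.06 ± 0.223 CPM. The oligodendrocyte lineage list, mostly Pdgfra, summed to 86.0 to 92.1 CPM in DMSO and 63.1 to 68.2 CPM in DS38. What part the shift in neuronal and lineage markers had in the changes below was not tested. In bulk RNA, fewer cells with a transcript and less of it in each cell cannot be told apart.

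After 5 days with DS-1-38, 8 of the 10 transcripts fell, while 1 rose and another missed the threshold of the test. The falls were largest for Etv4, Spry4 and Dusp6 and small for Spry1, Spred1, Spry2, Spred2 and Etv5, while Dusp5 went the other way. A gene was called changed where edgeR's quasi-likelihood test gave a p under 0.05 after Benjamini-Hochberg adjustment over all 15133 genes. Much of the transcriptome moved by this rule: 39.5% of all tested genes changed, 18.8% rising and 20.7% falling. Rises made up 47.5% of these changes, or 64.2% when libraries were scaled by totals alone, a setting in which 6 of the 10 fell and 1 rose. The median log2 fold change of the 10 was -0.26, against -0.01 for all tested genes. Their median absolute change was 0.29, against 0.18 for all, and for 6 of the 10 at least 29.5% of all genes moved more. In 7 of the 10 no DS38 library overlapped a DMSO library, and 36.1% of all tested genes showed such a separation.

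**Figure D1:**
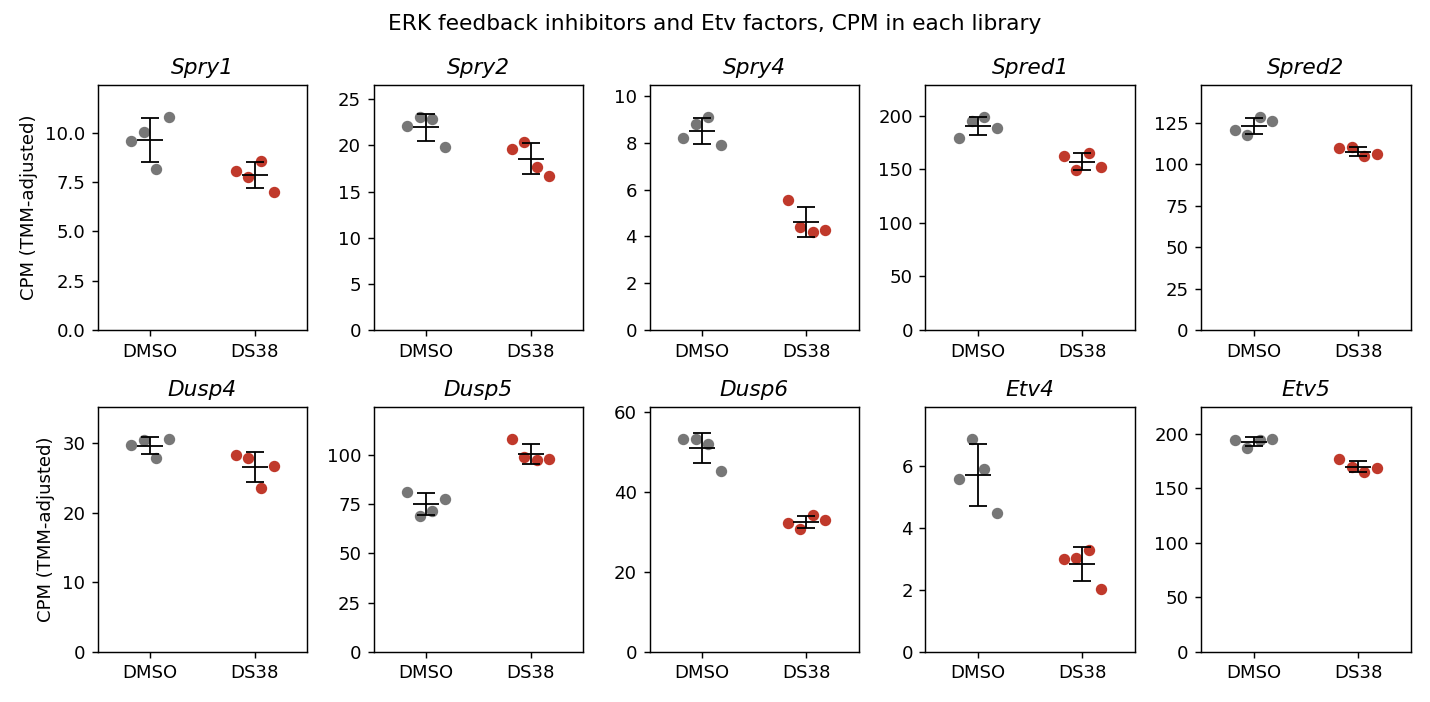
CPM of each of the 10 genes in each library, 1 panel per gene with its own linear axis from 0; points are libraries (replicates 1 to 4 from left to right), grey for DMSO and red for DS38, and bars give the mean and SD (n = 4). Groups are apart for Spry4, Spred1, Spred2, Dusp5, Dusp6, Etv4 and Etv5 and overlap for Spry1, Spry2 and Dusp4, and Dusp5 alone is higher in DS38.

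Sprouty proteins are intracellular inhibitors that are themselves induced by FGF signalling. Spry4 was measured at 8.21, 8.81, 9.12 and 7.90 CPM in DMSO replicates 1 to 4 and at 5.56, 4.40, 4.20 and 4.26 CPM in DS38. All treated libraries lay below all control libraries, with DS38 replicate 1 the highest of its group. From a mean of 8.51 ± 0.555 CPM (SD, n = 4) Spry4 reached 4.61 ± 0.642, a 1.84-fold fall (edgeR adjusted p = 8.14e-06 for a log2 fold change of -0.88 ± 0.11 SE). Only 3.71% of tested genes had a larger absolute log2 fold change.

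The other Sprouty genes fell less, and their calls were fragile. Spry2 stood at 22.1, 23.1, 22.9 and 19.8 CPM in DMSO and at 19.6, 20.3, 17.7 and 16.7 CPM in DS38. The groups overlapped, since DMSO replicate 4 lay below DS38 replicate 2. Its log2 fold change was -0.23 ± 0.074 SE (edgeR adjusted p = 0.0165). Spry1 was measured at 9.58, 10.0, 8.14 and 10.8 CPM in DMSO and at 8.07, 7.77, 8.58 and 7.02 CPM in DS38. Here DMSO replicate 3 lay within the DS38 range. The log2 fold change of Spry1 was -0.30 ± 0.10 SE (edgeR adjusted p = 0.0250). Scaling by library totals alone ended both calls (adjusted p = 0.0695 for Spry1 and 0.0696 for Spry2). Leaving out single libraries ended them too, for Spry1 without replicate 2 or 4 of DMSO (0.0666 and 0.0827) or of DS38 (0.0627 and 0.0707), and for Spry2 without replicate 2 of DMSO (0.0552) or replicate 3 or 4 of DS38 (0.0569 and 0.0582).

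Spred proteins, relatives of the Sproutys, bring the Ras inactivator neurofibromin to the membrane. Spred1 stood at 179, 195, 199 and 189 CPM in DMSO and at 162, 149, 165 and 152 CPM in DS38. Every treated library was below every control library, by a margin that is narrow next to the level. The mean went from 190 ± 8.55 to 157 ± 7.65 CPM (edgeR adjusted p = 7.79e-05 for a log2 fold change of -0.28 ± 0.044 SE). Spred2 was measured at 121, 118, 129 and 126 CPM in DMSO and at 110, 110, 105 and 106 CPM in DS38. Again the groups did not overlap, and the log2 fold change was -0.19 ± 0.041 SE (edgeR adjusted p = 9.67e-04). These falls, 1.21-fold for Spred1 and 1.14-fold for Spred2, were small, and these transcripts carried between 1821 and 4492 counts per library.

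The Dusp genes split. Dusp6 encodes a cytoplasmic phosphatase that acts on ERK with high selectivity. It was measured at 53.2, 53.4, 52.1 and 45.3 CPM in DMSO and at 32.2, 30.8, 34.2 and 33.0 CPM in DS38. All DS38 libraries were lower than the lowest DMSO library, replicate 4. The mean fell 1.57-fold, from 51.0 ± 3.84 to 32.5 ± 1.44 CPM (log2 fold change -0.65 ± 0.057 SE). With an edgeR adjusted p = 6.55e-08, Dusp6 had the smallest p-value of the 10 genes.

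Dusp5, which encodes a phosphatase that acts on ERK in the nucleus, rose. It stood at 81.3, 69.2, 71.9 and 77.9 CPM in DMSO and at 108, 99.2, 97.5 and 98.2 CPM in DS38. The lowest treated library exceeded the highest control library. The rise was 1.34-fold, from 75.1 ± 5.53 to 101 ± 5.15 CPM (edgeR adjusted p = 4.85e-06 for a log2 fold change of 0.43 ± 0.052 SE). The annotation also places exons of an opposite-strand gene over Dusp5, with 19 counts over all libraries where Dusp5 had 15539. How strand was treated in counting is not given, and whether reads of that gene entered the Dusp5 count was not tested. Dusp4, a nuclear phosphatase gene of wider substrate range, had 29.8, 30.4, 27.9 and 30.7 CPM in DMSO and 28.4, 27.9, 23.5 and 26.8 CPM in DS38. DS38 replicate 1 and, barely, replicate 2 lay above DMSO replicate 3. The test was not passed (edgeR adjusted p = 0.0607 for a log2 difference of -0.15 ± 0.062 SE). Dusp4 passed without DMSO replicate 3 (adjusted p = 0.0437), without DS38 replicate 1 (0.0441) and after removal of a trend with gene length (0.0464).

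Etv4 and Etv5 encode closely related ETS activators that carry FGF and ERK signals to target genes. Etv4 had the largest fold change of the 10. It was measured at 5.61, 6.90, 5.92 and 4.49 CPM in DMSO and at 3.01, 3.02, 3.28 and 2.03 CPM in DS38. No library of one group reached the range of the other, although the spread was wide for so low a transcript, with 39 to 159 counts per library. The fall was 2.02-fold, from 5.73 ± 0.995 to 2.84 ± 0.553 CPM (edgeR adjusted p = 6.92e-05 for a log2 fold change of -1.01 ± 0.16 SE), and 2.26% of tested genes had a larger absolute log2 fold change. Etv5 stood far higher, at 194, 187, 194 and 196 CPM in DMSO and at 177, 169, 165 and 168 CPM in DS38. These groups were apart as well, by a small step: the fall was 1.13-fold (edgeR adjusted p = 9.14e-04 for a log2 fold change of -0.18 ± 0.038 SE). About as many genes moved more than Etv5 as moved less, with 49.3% above it in absolute change.

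Levels of different genes were compared as RPKM, the CPM divided by the length of the gene model in kilobases. In DMSO, Etv5 was highest at 47.0 ± 0.975 RPKM (SD, n = 4), followed by Dusp5 (30.4 ± 2.23 RPKM), Spred1 (28.1 ± 1.26 RPKM) and Spred2 (26.7 ± 1.05 RPKM). Dusp5, Spred1 and Spred2 overlapped, each with the next in this order. Dusp6 came next at 16.3 ± 1.23 RPKM, then Dusp4 at 10.8 ± 0.468 and Spry2 at 10.5 ± 0.713 RPKM, which overlapped each other. Spry1 stood at 3.32 ± 0.385 RPKM, and Etv4 (1.85 ± 0.321 RPKM) and Spry4 (1.79 ± 0.117 RPKM) were lowest and overlapped. The genes with the largest falls were thus the scarcest ones and Dusp6. In DS38 the order was nearly kept, but Dusp5 (40.8 ± 2.08 RPKM) now overlapped Etv5 (41.4 ± 1.25 RPKM), and Dusp6 (10.4 ± 0.460 RPKM) overlapped Dusp4 (9.72 ± 0.794 RPKM), which it had exceeded in DMSO.

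**Figure D2:**
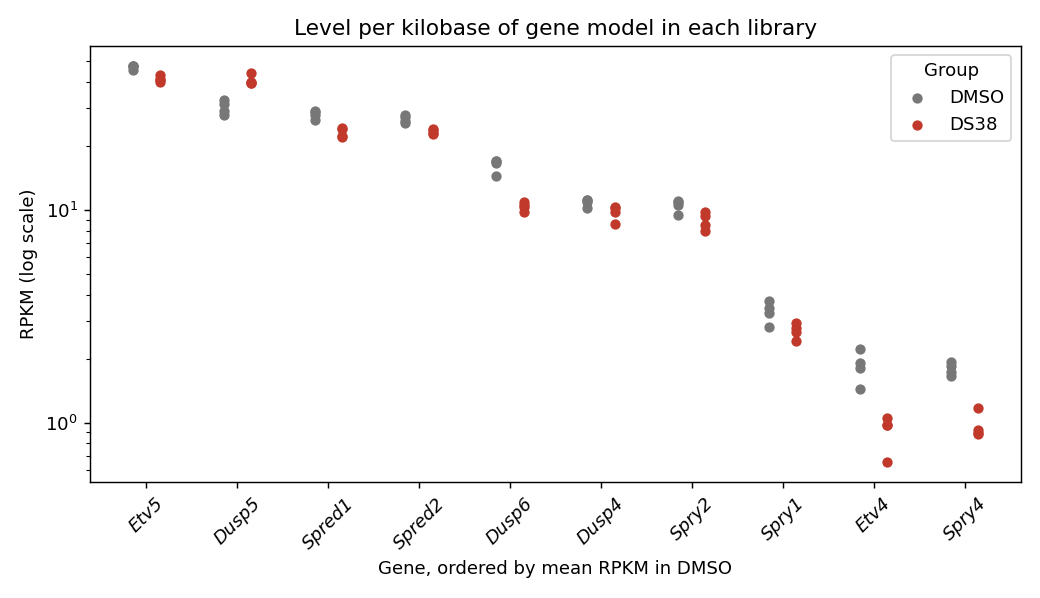
RPKM of the 10 genes in each library on a log axis, with genes ordered by their mean in DMSO; grey points are DMSO and red points DS38 libraries (n = 4 each). Levels span from 47.0 RPKM for Etv5 to 1.79 RPKM for Spry4 in DMSO, and Dusp5 moves up to the level of Etv5 in DS38.

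Ratios between members of a family, taken within each library and so free of the scaling between libraries, showed unequal changes. All 8 within-family pairs were compared by an exact two-sided permutation test over the 8 libraries, whose smallest possible p is 0.0286, with Benjamini-Hochberg adjustment over the 8. The ratio of Dusp5 to Dusp6 went from 1.86 in DMSO to 3.92 in DS38 (difference of mean log2 ratios 1.07, from 0.90 ± 0.18 to 1.97 ± 0.11, SD). That of Spry2 to Spry4 went from 5.88 to 9.22, and that of Spry1 to Spry4 from 1.85 to 2.80. Etv4 was 0.0388 of Etv5 in DMSO and 0.0217 in DS38. For these 4 ratios and for Dusp4 against Dusp5 and Dusp4 against Dusp6 the exact permutation p was the smallest possible, with an adjusted p = 0.0381. For Dusp5 to Dusp6 this p was fixed in advance, because every DS38 library was higher for Dusp5 and lower for Dusp6. The other ratios reuse the libraries of the single-gene tests and are not independent of them. How often arbitrary pairs of genes reach this p was not tested. The ratios of Spred1 to Spred2 (difference in log2 -0.08, exact permutation p = 0.229, adjusted 0.261) and of Spry1 to Spry2 (-0.05, exact permutation p = 0.743) did not pass. Dusp5 made up 52.8% ± 2.34 of the summed RPKM of the 3 Dusp genes in DMSO and 67.0% ± 0.772 in DS38, while Dusp6 went from 28.4% ± 2.28 to 17.1% ± 1.18. The sum of the 3 itself was 57.5 ± 2.25 RPKM in DMSO and 60.9 ± 2.47 in DS38, with overlapping groups. The Sprouty sum was 15.6 ± 0.609 and 12.6 ± 0.979 RPKM, and the Spred sum 54.8 ± 1.89 and 46.5 ± 1.03 RPKM, without overlap in either.

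**Figure D3:**
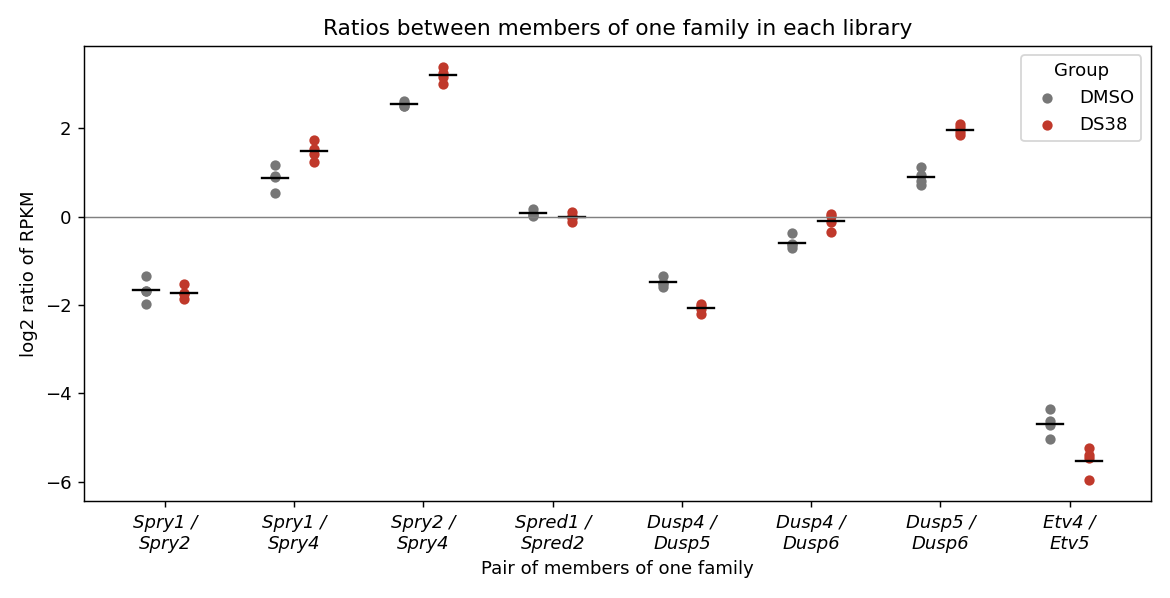
Log2 ratio of RPKM for the 8 pairs of genes within a family, 1 point per library and a bar at each group's mean, grey for DMSO and red for DS38. The Dusp5 to Dusp6 ratio rises from 0.90 to 1.97 on the log2 scale, whereas the Spry1 to Spry2 and Spred1 to Spred2 ratios overlap between the groups.

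Across the 8 libraries the 45 pairs of genes had a median Pearson's r of 0.73 in log2 CPM, which the difference between the groups largely sets, since both groups enter. Deviations from the group means had a median r of 0.14, from -0.61 for Spred2 and Dusp6 to 0.79 for Dusp5 and Etv5. The libraries are shared by all pairs and 8 of them give little precision. The genes most like Dusp6 over the 8 libraries, among those of at least 4 CPM, were Rpf1 (r = 0.997), Mtfr1 (r = 0.995) and Map2k6 (r = 0.993), a MAP kinase kinase gene of the stress pathways. For Dusp4, the member that did not pass, they were Gpr137b-ps (r = 0.980), Polr3g (r = 0.940) and Tigd5 (r = 0.928). These are the highest values picked from all tested genes of that level, and the difference between the groups enters them too.

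Among 8 tested relatives of these genes there were 1 rise and 2 falls. This share of 37.5% changed is near the 39.5% of all tested genes, and whether it differs from that of the 10 genes was not tested. Etv1, the third gene of the Etv4 and Etv5 group, fell from 64.7 ± 3.46 to 55.1 ± 4.74 CPM (log2 fold change -0.23, edgeR adjusted p = 0.00421), as did Dusp7, another ERK phosphatase gene (-0.27, adjusted p = 0.00900). Dusp16, whose product acts mainly on stress-activated kinases, rose (0.23, edgeR adjusted p = 5.04e-04). Spred3, Dusp1, Dusp8, Dusp9 and Dusp10 did not pass, with log2 differences of 0.08, -0.08, -0.10, 0.10 and 0.10. Dusp2, with 16 counts over the 8 libraries, was under the filter on low counts, and Spry3 was not analysed here.

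Other transcripts known to be induced by ERK went in both directions: 10 were tested, with 4 rises, 2 falls and a median log2 fold change of 0.19. The share changed was 60%, against 39.5% of all tested genes, and whether these differ was not tested. Il17rd, which encodes the FGF receptor inhibitor Sef, rose 2.57-fold from 0.978 ± 0.131 to 2.51 ± 0.251 CPM (edgeR adjusted p = 2.09e-05). The ephrin receptor genes Epha2 (log2 fold change 0.83) and Epha4 (0.42) rose as well, as did the immediate early gene Fos, from 8.17 ± 0.623 to 10.8 ± 1.51 CPM (0.40, edgeR adjusted p = 0.00508). Ier2, also an immediate early gene, fell 1.62-fold, and the cyclin D1 gene Ccnd1 fell by 0.38 on the log2 scale. Egr1 (log2 difference -0.27, edgeR adjusted p = 0.114), Ier3 (-0.49, 0.152), Phlda1 (0.32, 0.158) and Myc (0.06, 0.359) did not pass, though Egr1 did without DMSO replicate 4 (adjusted p = 0.0138) and without the filter on low counts (0.0104). Fosl1 was under that filter.

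**Figure D4:**
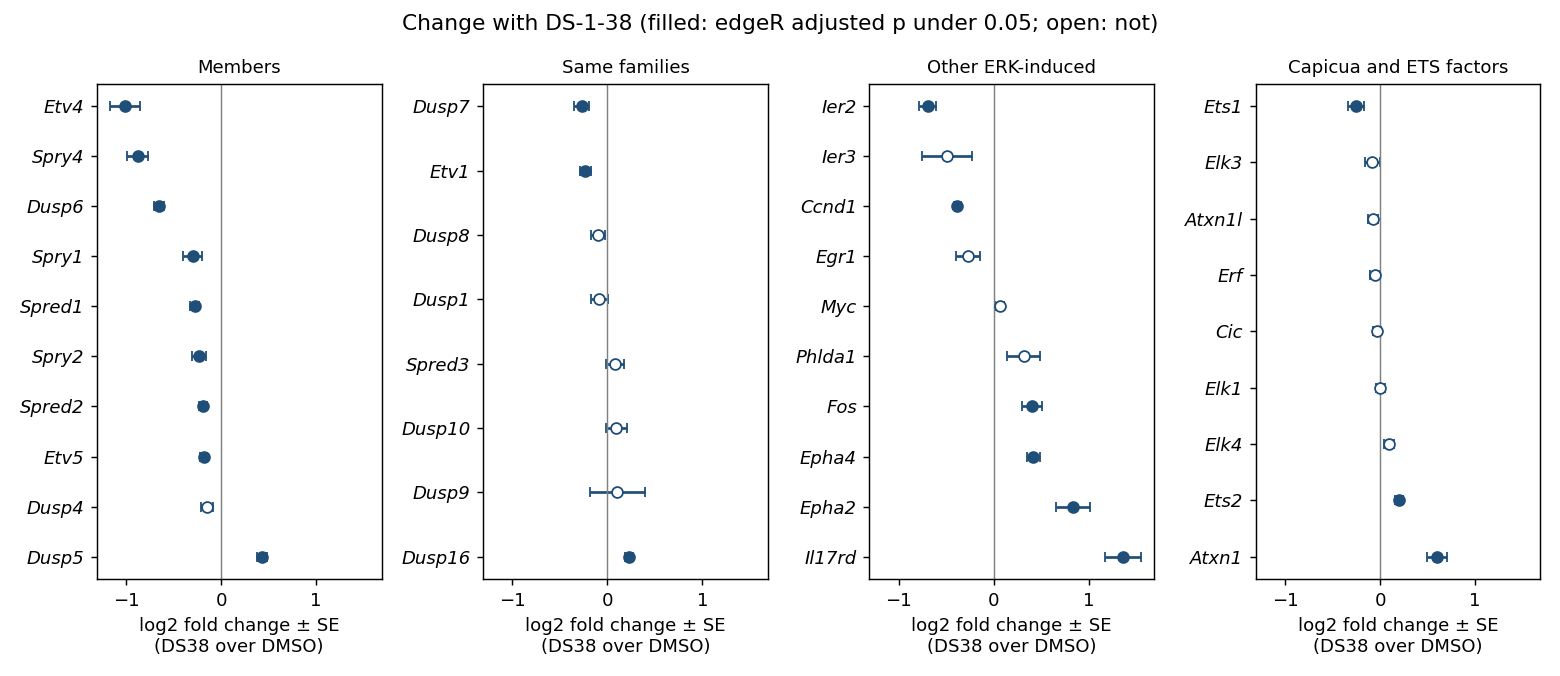
Log2 fold change of DS38 over DMSO with its standard error for the 10 genes and for the tested genes of 3 related lists; filled circles passed an edgeR adjusted p of 0.05 and open circles did not. The 10 genes lie at or left of -0.15 apart from Dusp5 at 0.43, while the other ERK-induced transcripts run from -0.70 for Ier2 to 1.36 for Il17rd.

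Upstream of these genes, 24 components of the Ras and ERK cascade were tested, of which 3 rose, 8 fell and 13 did not pass. The share changed, 45.8%, was near the 39.5% of all tested genes. The MEK1 gene Map2k1 fell from 82.3 ± 5.09 to 64.3 ± 2.75 CPM (log2 fold change -0.36, edgeR adjusted p = 1.66e-05). Ptpn11, a phosphatase gene needed for Ras activation, fell by 0.17 on the log2 scale. The scaffold gene Ksr1 rose (log2 fold change 0.82), and the ERK-activated kinase genes Rps6ka1 and Rps6ka2 moved apart, at 0.57 and -0.49. Of 14 FGF ligand, receptor and co-receptor genes 8 were tested, with 1 rise, 3 falls and 4 that did not pass. That is 50% changed among few genes, against 39.5% of all tested genes. The receptor gene Fgfr1 fell from 98.6 ± 0.716 to 79.4 ± 3.86 CPM (log2 fold change -0.31, edgeR adjusted p = 1.30e-05). The ligand genes Fgf1 (-1.27, at 2.99 ± 0.710 and 1.22 ± 0.156 CPM) and Fgf9 (-0.20) fell, and Fgfr3, at 0.457 ± 0.178 and 0.887 ± 0.0597 CPM, rose by 0.96 on the log2 scale, though without DMSO replicate 2 it did not pass (adjusted p = 0.0533).

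Of 9 genes for Capicua, its partners and ETS factors under ERK control, 2 rose, 1 fell and 6 did not pass. This share of 33.3% changed was near the 39.5% of all tested genes. Cic, the Capicua gene, stood at 122 ± 5.33 and 119 ± 4.51 CPM (log2 difference -0.03, or 0.026 with library totals alone, edgeR adjusted p = 0.556), although it passed after removal of a trend with gene length (-0.11, adjusted p = 0.0284). Atxn1, which encodes a binding partner of Capicua, rose from 7.18 ± 1.03 to 10.8 ± 0.932 CPM (log2 fold change 0.60, edgeR adjusted p = 2.15e-04). Ets2 rose (0.20) and Ets1 fell (-0.25, edgeR adjusted p = 0.0244), the latter call being lost in 8 of 17 alternative settings.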

How the data were processed

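The authors deposited whole-number read counts per gene, 1 column per library, with a gene length in bases, and had not normalized them. Per the submitters' processing notes, reads were handled with STAR 2.7.9a, featureCounts, edgeR, R 4.1.0 and Subread 2.0.3, whose order and roles are not stated, and the builds named are GRCm39 and GRCh38.p13. How strand and multiply mapped reads were treated, and which annotation release was used, is not given in the sources used here. Per the labels' protocols, RNA was column purified and libraries came from a Kapa mRNA kit.

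Symbols for 52083 of 55416 identifiers came from GENCODE M21, an earlier build used for names and for which genes overlap. Exons of opposite-strand genes overlap those of Dusp5 and Spry1 alone among the 10, and these neighbours had 19 and 14 counts. Promoter sequences are RefSeq's (GRCm38.p6), and their coordinates were not joined to the counts.

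Testing used edgeR 4.0.16 under R 4.3.3 (robust quasi-likelihood, TMM, filterByExpr with a minimum of 10 counts, no replicate block), with Benjamini-Hochberg adjustment over all 15133 genes kept. The common biological coefficient of variation was 5.53%. Standard errors are the log2 fold change over the square root of F. CPM used TMM-adjusted totals, with factors of 0.9756 to 0.9836 in DMSO and 1.014 to 1.032 in DS38. This scaling thus lowers every DS38 library relative to every DMSO library. With library totals alone, log2 fold changes went from -0.18 to -0.12 for Etv5, from -0.19 to -0.13 for Spred2 and from 0.43 to 0.49 for Dusp5. For likeness, 0.5 was added to CPM before log2. The test was run before use on simulated counts with known changes in few genes. Changes as small as most of those above, and shifts as widespread as here, were not simulated. Alternatives were other normalizations, tests (DESeq2 1.42.0, limma 3.58.1) and filters, a replicate block, a gene length correction and left-out libraries.

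The 10 genes and all lists were chosen with earlier results of these data known. Named genes were the 10, 3 whole lists, up to 6 genes of smallest p in the cascade and FGF lists, and the genes most like Dusp6 and Dusp4. Some genes that the rule gave are not reported here.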

Additional observations from a re-analysis of the deposited data

Results flagged for a closer look

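A single library stood well away from the other 3 of its group in 4 of the 20 sets of 4 values (10 genes in 2 groups), where chance gives about 1 in 20. Spry4 was high in DS38 replicate 1, at 5.56 CPM against 4.20 to 4.40 CPM in the others, and its log2 fold change was -0.98 without that library. Dusp5 was high in the same library, at 108 CPM against 97.5 to 99.2, and its log2 fold change was 0.39 without it. Dusp6 was low in DMSO replicate 4, at 45.3 CPM against 52.1 to 53.4, with a log2 fold change of -0.71 without it. Etv5 was low in DMSO replicate 2, at 187 CPM against 194 to 196, with -0.20 without it. All 4 genes passed the test with and without the library.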

How the results depend on the processing

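Over 17 alternative settings none of the 10 genes changed direction, and 158 of 170 values stayed on the same side of the threshold. Spry4, Spred1, Spred2, Dusp5, Dusp6, Etv4 and Etv5 passed in all 17, Spry1 lost its call in 5, Spry2 in 4, and Dusp4 gained one in 3. The number of the 10 that changed was 7 to 10 without single libraries, 7 with library totals alone and 9 without both libraries numbered 1. Library totals also moved the share of rises among all changed genes from 47.5% to 64.2%, while the median log2 fold change of all genes shifted by 0.06. Over all genes, 4939 to 5912 changed without single libraries, against 5980 with all 8.

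The replicate numbers showed no steady pairing: same-numbered libraries had correlations of 0.369, -0.121, 0.081 and -0.306, and not every library was most like its own number. The 0.369 of the libraries numbered 1 was the highest over all pairs of a DMSO and a DS38 library. With 4 libraries per group, these values cannot show whether same-numbered libraries shared a culture or batch. With the replicate block 5594 genes changed, 9 of the 10 among them, and no call among the 10 differed.

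Directions of genes that had not passed turned for Cic (0.026) and Erf (0.012) with library totals and for Elk1 without the filter on low counts (-0.0058) and with the length trend removed (-0.030). Dusp9 turned without both libraries numbered 1 (-0.11) and ran from -0.19 to 0.22 without single libraries, where Elk1 ran from -0.034 to 0.043. Counts limit Etv4, Spry4 and Spry1 most, with standard errors of 0.16, 0.11 and 0.10 on the log2 scale. The cause of these shifts was not tested.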
